A study of Mus musculus with 57 samples.

Results

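The genes described here are 27 mouse genes of cholesterol synthesis and sterol regulation. They were chosen by name for their roles in the pathway, with earlier results of these data known. Each was measured by the array probe set annotated with its symbol alone, and by the one with the highest mean where there were several. This gave values for 26 of the 27 genes, among 19938 genes measured in all. Acat2, the acetoacetyl-CoA thiolase, had no probe set with its symbol alone and is not analysed here. All 26 genes passed the filter on low values, which asked for a log2 intensity above 5 in at least 3 arrays and left 19302 genes to be tested. The lowest log2 intensity of any of the 26 in any array was 5.85, for Lss in total RNA.

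Cells make cholesterol from acetyl-CoA by way of mevalonate, isoprenoids, squalene and lanosterol, and most of the enzymes are made at a rate set by the transcription factor SREBP2. When membrane sterol is low, SCAP escorts the SREBP precursors out of the endoplasmic reticulum to be cut, and when sterol is plentiful the INSIG proteins hold SCAP back. Surplus cholesterol is exported by the transporters ABCA1 and ABCG1, whose genes are induced by oxysterols through the LXR receptors. Renal tubule cells renew large areas of brush border and basolateral membrane, and cholesterol is known to accumulate in kidney cortex after ischemic injury.

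The study purified tagged ribosomes from 4 cell populations of the mouse kidney and measured the messenger RNA bound to them (translating ribosome affinity purification, TRAP). In each line a Cre recombinase switched on a green fluorescent L10a ribosomal protein from the allele Rosa26-CAGGS-eGFPL10a, which all 4 lines carried, and antibodies to the tag pulled the ribosomes from whole-kidney extract. The lines were six2-CRE for the nephron, foxd1-CRE for the interstitium, cdh5-CRE for vascular endothelium and lyz2-CRE for macrophages and monocytes (called the myeloid line below). Each line had 3 arrays 24 h after bilateral ischemia-reperfusion injury (IRI), made by clamping each renal pedicle for 28 min, 3 arrays 24 h after sham surgery and 3 arrays from mice without surgery, and another 3 nephron arrays were taken 4 h after IRI. Nephron mice were 8 weeks old after IRI at either time and after sham surgery, and 6 weeks old without surgery. Myeloid mice were 9.5 weeks old after IRI, and 7 weeks old after sham surgery and without surgery. Interstitial and endothelial mice were 6 weeks old in all groups. Age therefore cannot be told apart from IRI in the myeloid line, nor from sham surgery in the nephron line. No sham at 4 h was analysed here, so the 24 h sham arrays also serve the 4 h arrays.

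Kidneys without Cre were taken through the same purification as background. Mice with the L10a allele gave 4 IRI and 2 sham arrays, and the labels give their genotype both as homozygous and as Rosa26-CAGGS-eGFPL10a/+. Wild-type mice gave 4 IRI and 2 sham arrays. Total kidney RNA of heterozygous L10a mice without Cre gave 3 IRI and 3 sham arrays. These mice were 8 weeks old, and all mice of the series were male and of mixed C57BL/6 and 129 background by their strain field, although the wild-type arrays are named C57BL/6. Foxd1 is also active in podocytes and Lyz2 in neutrophils, so neither Cre is limited to the population it stands for. The labels trace the L10a background to podocytes and some collecting duct cells.

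Values are log2 intensities. Changes are log2 fold changes, given with the standard error (SE) of one limma fit of all 57 arrays, and the words rose and fell are used of genes whose p, adjusted over the 19302 genes, was under 0.05. Arrays are labelled as biological replicates. In RNA of whole kidneys, and in ribosomes pulled from them, fewer cells of a type and less RNA per cell cannot be told apart.

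Markers of interstitium, endothelium and myeloid cells were higher in their own line than in the other 3 lines, while those of nephron epithelium were not. Marker sums here and below are the log2 of the summed intensities, so the most abundant markers weigh most. For 4 interstitial markers this sum was 13.23 to 13.60 over the 9 interstitial arrays and 9.55 to 11.20 in the other lines, but 11.96 to 13.30 in wild-type background. For 5 endothelial markers it was 14.63 to 14.79 in endothelial arrays, and for 6 myeloid markers 14.78 to 15.09 in myeloid arrays, with 13.28 to 14.60 for the myeloid markers in endothelial arrays. The 6 nephron markers summed to 14.62 to 15.28 in nephron arrays, against 15.06 to 15.67 in wild-type background, and to 12.85 to 15.41 in the other 3 lines. Nephron messages were thus present in the arrays of every line. Total RNA arrays lay on a lower scale, with median intensities of 43.9 to 53.3 against 105.8 to 128.4 in TRAP arrays, and only changes within each kind are compared below.

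The promoter is shown for 4 enzymes that fell after IRI and for Msmo1, which rose in 2 lines. Each sequence is the 250 bases before the RefSeq transcription start on GRCm38.p6, read 5′ to 3′ on the gene's strand. Capitals mark CCAAT, the box bound by NF-Y, or its reverse complement ATTGG, and TCACNCCAC, a sterol regulatory element of the kind SREBPs bind, both searched on either strand.
Hmgcs1, chr13:119690101-119690350, plus strand: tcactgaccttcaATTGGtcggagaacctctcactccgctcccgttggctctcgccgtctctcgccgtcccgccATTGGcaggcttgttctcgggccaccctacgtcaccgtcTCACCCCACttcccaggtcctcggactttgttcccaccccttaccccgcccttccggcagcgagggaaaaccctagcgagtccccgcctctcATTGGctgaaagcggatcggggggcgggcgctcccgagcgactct
Idi1, chr13:8885356-8885605, plus strand: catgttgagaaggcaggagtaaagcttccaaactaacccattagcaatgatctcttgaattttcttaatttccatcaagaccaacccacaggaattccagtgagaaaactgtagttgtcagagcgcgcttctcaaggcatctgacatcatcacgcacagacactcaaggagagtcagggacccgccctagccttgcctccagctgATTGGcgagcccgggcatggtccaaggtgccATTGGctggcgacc
Mvd, chr8:122443423-122443672, minus strand: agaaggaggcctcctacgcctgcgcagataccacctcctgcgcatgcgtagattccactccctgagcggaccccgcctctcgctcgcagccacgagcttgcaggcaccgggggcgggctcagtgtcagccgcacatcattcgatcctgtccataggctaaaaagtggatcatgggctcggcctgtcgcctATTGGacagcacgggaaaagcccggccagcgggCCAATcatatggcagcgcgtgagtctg
Cyp51, chr5:4104698-4104947, minus strand: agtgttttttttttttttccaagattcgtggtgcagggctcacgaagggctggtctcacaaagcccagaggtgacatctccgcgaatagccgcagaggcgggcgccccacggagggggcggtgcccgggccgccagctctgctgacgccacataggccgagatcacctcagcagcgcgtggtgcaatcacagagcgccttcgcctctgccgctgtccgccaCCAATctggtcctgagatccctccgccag
Msmo1, chr8:64733579-64733828, minus strand: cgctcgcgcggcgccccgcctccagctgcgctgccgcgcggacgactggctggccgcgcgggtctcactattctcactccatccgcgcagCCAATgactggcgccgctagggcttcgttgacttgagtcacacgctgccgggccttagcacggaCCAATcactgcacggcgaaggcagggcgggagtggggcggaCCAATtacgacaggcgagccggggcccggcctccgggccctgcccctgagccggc
Hmgcs1 holds the sterol element at position -137, counted from the transcription start, and CCAAT boxes on either side of it. Of the 27 genes, 22 had a promoter in the RefSeq table. CCAAT was found in 19 of these 22 genes (86.4%), against 37.5% of all 27025 genes in the table. The string TCACNCCAC was found in Hmgcs1 alone (4.55%), against 1.22% of all genes. Other forms of the sterol element were not searched, so the other promoters cannot be said to lack one. Msmo1 holds 3 CCAAT boxes and Cyp51 holds 1, so genes that fell and a gene that rose both hold the box. These motifs were chosen with the changes known, and the counts describe letters in a window.

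At 24 h after IRI, 7 of the 26 genes of cholesterol synthesis and sterol regulation fell in all 4 lines: Hmgcs1, Mvd, Idi1, Sqle, Cyp51, Dhcr7 and Stard4. That is 26.9% of the genes, where 3.57% of all genes tested fell in all 4 lines. The count depended on the setting. With quantile normalization 4 genes fell in all 4 lines (Hmgcs1, Idi1, Sqle and Stard4), with each array centred on its median 4 did (Hmgcs1, Idi1, Mvd and Stard4), and with 1 array left out at a time 2 to 7 did. The lowest counts were 2 without myeloid IRI replicate 3 and 3 without myeloid sham replicate 2. The count was 4 without endothelial IRI replicate 2, endothelial sham replicates 2 or 3 or myeloid IRI replicate 1. Stard4, alone of the 7, passed in all 4 lines in all 36 settings run. Another 3, Mvk, Nsdhl and Ebp, fell in the nephron, interstitial and endothelial lines. In the nephron line 11 genes fell (14.7% of all genes tested fell) and 2 rose (13.8%), and in the interstitial line 11 fell (19.9%) and 2 rose (19.2%). In the endothelial line 15 fell (21.7%) and 1 rose (21.1%), and in the myeloid line 8 fell (14.6%) and 5 rose (13.2%). The median log2 fold change of the 26 genes was -0.36, -0.27, -0.53 and -0.21 in the nephron, interstitial, endothelial and myeloid lines, where that of all genes was -0.04, 0.05, 0.07 and -0.02. No gene fell in one line and rose in another (5.80% of all genes tested did), none rose in all 4 lines (3.42%), and Lss, Sc5d and Srebf1 passed in no line (31.8%).

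The summed markers of nephron epithelium were lower after IRI in the nephron, interstitial and myeloid lines. Their sum was 14.62 to 14.70 in nephron IRI arrays and 14.98 to 15.14 in nephron sham arrays, 14.35 to 14.48 and 15.22 to 15.41 in interstitial IRI and sham arrays, and 12.85 to 13.01 and 13.60 to 14.55 in myeloid IRI and sham arrays. Single markers differed. In the nephron line Lrp2 (-0.74), Cubn (-1.02) and Slc12a1 (-2.69) fell, while Slc34a1 (-0.13), Umod (0.00) and Slc12a3 (-0.24) did not pass. In the myeloid line all of these fell except Slc12a3 (-0.25). In endothelial arrays the sums of the groups overlapped, with 14.08 to 14.26 in IRI arrays, against 13.82 to 14.72 in sham arrays. Markers of some other cells were also lower in endothelial IRI arrays: 6 myeloid markers summed to 13.28 to 14.05 in IRI arrays, against 14.41 to 14.60 in sham arrays, and 3 lymphocyte markers to 8.22 to 8.38, against 9.28 to 9.51. Neutrophil markers were higher there, with sums of 12.98 to 13.16 in IRI arrays, against 10.36 to 11.43 in sham arrays. The part of these markers in the falls of the 26 genes was not tested.

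**Figure D1:**
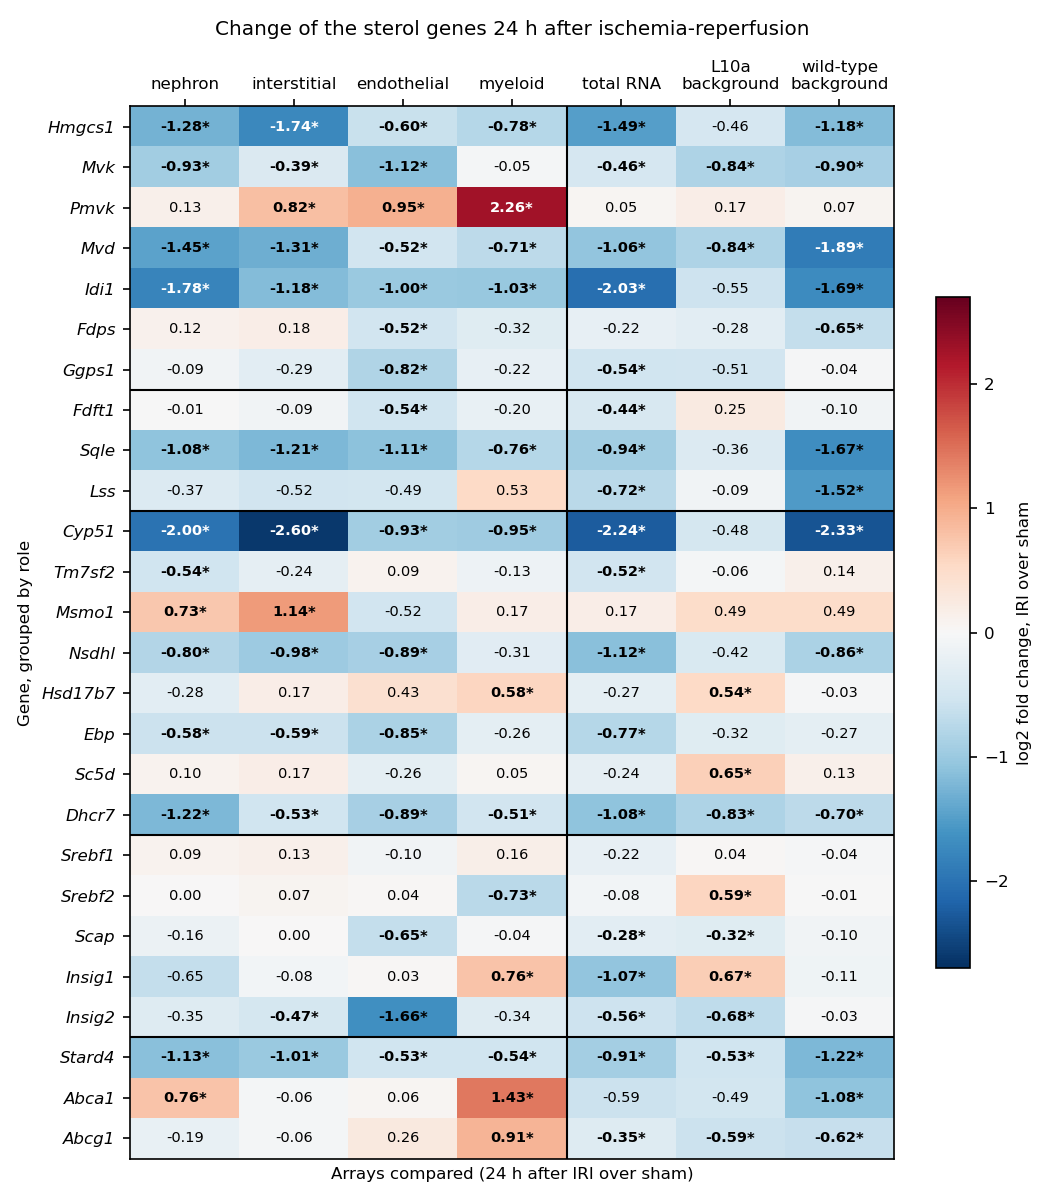
Log2 fold changes of the 26 genes (rows, grouped by role) 24 h after IRI over sham, in the 4 Cre lines, total RNA and the 2 backgrounds (columns). Colour gives the size and an asterisk with bold type marks adjusted p under 0.05. Cyp51 fell most in the nephron (-2.00) and interstitial lines (-2.60), and Pmvk rose most, in the myeloid line (2.26).

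The first committed steps of the pathway were measured by 7 genes from mevalonate synthesis to the isoprenoids. In the nephron, interstitial, endothelial and myeloid lines 4, 4, 6 and 3 of them fell, and 0, 1, 1 and 1 rose. Hmgcs1, the HMG-CoA synthase, stood at 10.47, 10.67 and 10.55 in nephron IRI arrays, against 11.89, 11.94 and 11.71 in nephron sham arrays (-1.28 ± 0.25, adjusted p = 6.8e-05). In the interstitial line it was 10.43, 10.33 and 10.24 after IRI, against 12.14, 11.84 and 12.24 in sham (-1.74 ± 0.25, adjusted p = 2.3e-07). In both lines every IRI array lay below every sham array. The falls of Hmgcs1 in the endothelial line (-0.60 ± 0.25, adjusted p = 0.047) and the myeloid line (-0.78 ± 0.25, adjusted p = 0.014) were smaller, and the 4 responses differed by the F test (adjusted p = 0.025). Myeloid sham replicate 2 stood at 11.17, with 10.19 and 10.26 in the other two. Without it the myeloid change was -0.47 and did not pass (adjusted p = 0.21), nor did it pass without IRI replicate 3. The endothelial call did not pass without IRI replicates 1, 2 or 3 or sham replicates 2 or 3 (-0.62 to -0.50, adjusted p up to 0.17), and its adjusted p was 0.056 with the replicate number as a block.

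Mvd decarboxylates mevalonate diphosphate to isopentenyl diphosphate. It was 8.87, 8.96 and 9.04 in nephron IRI arrays, against 10.49, 10.52 and 10.22 in nephron sham arrays (-1.45 ± 0.20, adjusted p = 1.6e-07). In the interstitial line it was 8.60, 8.32 and 8.33 after IRI, against 9.85, 9.66 and 9.66 in sham (-1.31 ± 0.20). The groups did not overlap in either line. The change was -0.52 ± 0.20 in the endothelial and -0.71 ± 0.20 in the myeloid line (adjusted p = 0.029 and 0.005). The myeloid call did not pass without sham replicate 2 (-0.54, adjusted p = 0.064). The endothelial call did not pass without IRI replicates 2 or 3 or sham replicates 2 or 3 (adjusted p up to 0.16), nor with quantile normalization (-0.27, adjusted p = 0.31).

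Idi1 isomerizes isopentenyl diphosphate. It had 8.61, 8.64 and 8.75 in nephron IRI arrays, against 10.94, 10.70 and 9.67 in nephron sham arrays (-1.78 ± 0.31, adjusted p = 1.6e-05). In the interstitial line it had 8.51, 8.36 and 8.01 after IRI, against 10.61, 8.90 and 8.92 in sham (-1.18 ± 0.31, adjusted p = 0.0021). All IRI arrays lay below all sham arrays in both, but the interstitial change rested on sham replicate 1, without which it was -0.62 (adjusted p = 0.10). A fit of the interstitial arrays compared alone gave adjusted p = 0.082. Endothelial arrays held 8.24, 8.44 and 8.40 after IRI, against 9.25, 9.25 and 9.60 in sham (it fell by 1.00 ± 0.31, adjusted p = 0.0079). Myeloid arrays held 8.35, 8.71 and 8.00 after IRI, against 9.40, 9.42 and 9.33 in sham (-1.03 ± 0.31, adjusted p = 0.01, and 0.074 without IRI replicate 3). No array of one group reached the other in these lines either, and the F test found no difference between the 4 responses of Idi1 (adjusted p = 0.35). The second probe set of Idi1 gave -1.72, -1.11, -1.01 and -0.92 in the 4 lines in the same order as above.

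Mvk, the mevalonate kinase, fell by 0.93 ± 0.13 in the nephron line (adjusted p = 2.4e-07). In endothelial arrays it was 7.61, 7.87 and 7.85 after IRI, against 8.88, 8.83 and 8.99 in sham (-1.12 ± 0.13, adjusted p = 1.7e-09). Its change was -0.39 ± 0.13 in the interstitial line, which did not pass without IRI replicate 3 or sham replicate 1, and -0.05 ± 0.13 in the myeloid line. Nephron arrays held 8.34, 8.74 and 8.64 after IRI, against 9.59, 9.42 and 9.49 in sham, apart as in the endothelial line. Fdps and Ggps1, which build the farnesyl and geranylgeranyl chains, fell in the endothelial line (-0.52 ± 0.14 and -0.82 ± 0.21) and did not pass in the other lines. Ggps1 was 9.25, 9.28 and 9.25 in endothelial IRI arrays, against 10.16, 9.92 and 10.16 in endothelial sham arrays, without overlap.

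Pmvk, the phosphomevalonate kinase between Mvk and Mvd, went the other way. Myeloid arrays held 10.73, 10.43 and 10.97 after IRI, against 8.44, 8.44 and 8.47 in sham (2.26 ± 0.13, adjusted p = 1.4e-17). These groups lay far apart, with a range of 0.03 among the sham arrays. Pmvk also rose in the endothelial line (0.95 ± 0.13) and the interstitial line (0.82 ± 0.13), but not by the test in the nephron line (0.13 ± 0.13), where it was 8.38 to 8.57 after IRI and between 8.22 and 8.55 in sham. The 4 responses differed (adjusted p = 5.2e-11). Neutrophil markers rose in the same 3 lines: 4 of 5 passed in each, among them S100a9 (2.43 ± 0.37 in the myeloid line), while 0 of 5 passed in the nephron line. The sum of the 5 markers was 13.49 to 13.92 in myeloid IRI arrays and 11.21 to 11.63 in myeloid sham arrays, 12.98 to 13.16 and 10.36 to 11.43 in endothelial IRI and sham arrays, and 10.38 to 10.79 and 8.55 to 8.67 in interstitial IRI and sham arrays. In wild-type background 4 of 5 also passed, with sums between 8.69 and 9.92 after IRI, against 8.57 and 8.65 in sham, where Pmvk was 7.86, 7.75, 7.64 and 7.72 after IRI and 7.60 and 7.76 in sham. The part of these markers in the change of Pmvk was not tested.

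Of the 3 genes that lead from farnesyl diphosphate to lanosterol, Sqle fell in every line. Sqle, the squalene epoxidase and a rate-limiting enzyme of the pathway, was 9.43, 9.69 and 9.66 in nephron IRI arrays, against 11.00, 10.69 and 10.33 in nephron sham arrays (-1.08 ± 0.25, adjusted p = 8.0e-04). Interstitial arrays held 8.80, 8.75 and 8.94 after IRI, against 10.30, 9.90 and 9.91 in sham (-1.21 ± 0.25, adjusted p = 1.4e-04). The endothelial values were 8.17, 8.16 and 8.23 after IRI, against 8.88, 9.70 and 9.31 in sham (-1.11 ± 0.25, adjusted p = 3.4e-04). All IRI arrays were below all sham arrays in these 3 lines, with the sham arrays more spread than the IRI arrays. The myeloid change was -0.76 ± 0.25 (adjusted p = 0.02), and it did not pass without IRI replicates 1 or 3 or sham replicate 2 (adjusted p up to 0.093). The responses of Sqle did not differ by the F test (adjusted p = 0.67). Fdft1, the squalene synthase, fell in the endothelial line (-0.54 ± 0.15) and was -0.01, -0.09 and -0.20 in the nephron, interstitial and myeloid lines. Lss, the lanosterol synthase, passed in no line, with -0.37, -0.52 and -0.49 in the nephron, interstitial and endothelial lines and 0.53 in the myeloid line. Its 4 responses differed by the F test (adjusted p = 0.017), and it stood at 9.23, 9.02 and 9.17 in myeloid IRI arrays, against 8.43, 8.82 and 8.57 in myeloid sham arrays. Without the total RNA arrays in the fit, Lss rose in the myeloid line (adjusted p = 0.017) and fell in the interstitial and endothelial lines (adjusted p = 0.016 and 0.022).

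The steps after lanosterol are run by 8 enzymes, of which 5, 4, 4 and 2 fell in the nephron, interstitial, endothelial and myeloid lines and 1, 1, 0 and 1 rose. Cyp51, the lanosterol demethylase, had the largest change of the 26 genes in the nephron and interstitial lines. It stood at 9.10, 8.99 and 8.70 in nephron IRI arrays, against 10.82, 11.03 and 10.93 in nephron sham arrays (-2.00 ± 0.33, adjusted p = 7.2e-06). In the interstitial line it stood at 7.98, 8.02 and 8.61 after IRI, against 10.40, 10.73 and 11.28 in sham (-2.60 ± 0.33, adjusted p = 2.8e-08). In both lines the lowest sham array was more than 1 log2 unit above the highest IRI array. The endothelial and myeloid changes were -0.93 ± 0.33 and -0.95 ± 0.33 (adjusted p = 0.021 and 0.027), with overlapping arrays in the endothelial line, where IRI replicate 1 was 8.50 and sham replicate 1 was 8.43. Without sham replicate 2 the endothelial change was -0.61 (adjusted p = 0.20), and it did not pass without IRI replicate 2 or sham replicate 3 either. The myeloid call did not pass on leaving out any 1 of the 6 arrays except sham replicate 1 (-0.99 to -0.76, adjusted p up to 0.14). With quantile normalization the adjusted p was 0.078 in the endothelial and 0.052 in the myeloid line. The F test found that the responses of Cyp51 differed (adjusted p = 0.0058), and the interstitial response minus the mean of the other 3 was -1.30 ± 0.38 (adjusted p = 0.015).

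Dhcr7 carries out the last reduction to cholesterol. It was 8.40, 9.03 and 8.47 in nephron IRI arrays, against 9.89, 9.92 and 9.75 in nephron sham arrays (-1.22 ± 0.19, adjusted p = 2.0e-06). The groups were apart even with IRI replicate 2, the highest of the 3. Its change was -0.89 ± 0.19 in the endothelial, -0.53 ± 0.19 in the interstitial and -0.51 ± 0.19 in the myeloid line. The interstitial call did not pass without IRI replicate 2 or sham replicate 1 (adjusted p up to 0.11), nor the myeloid call without any 1 of its arrays except sham replicate 2 (adjusted p up to 0.12) or with either other normalization (adjusted p = 0.053 and 0.11). Nsdhl, a decarboxylase that acts in removing the methyl groups at carbon C4, fell by 0.80 ± 0.21, 0.98 ± 0.21 and 0.89 ± 0.21 in the nephron, interstitial and endothelial lines. Ebp, the sterol isomerase, fell by 0.58, 0.59 and 0.85 in the same lines (SE 0.15 each). Nsdhl stood at 8.92, 8.70 and 8.94 in endothelial IRI arrays, against 9.72, 9.82 and 9.69 in endothelial sham arrays, and at 9.50, 9.36 and 9.38 in interstitial IRI arrays, against 10.53, 10.28 and 10.39 in interstitial sham arrays. The groups were apart in both. Neither gene passed in the myeloid line (-0.31 and -0.26), and the responses of neither differed by the F test (adjusted p = 0.19 and 0.12). Tm7sf2, a sterol C14 reductase, fell in the nephron line (-0.54 ± 0.16), where it was also highest, and did not pass there without IRI replicate 1 (-0.42, adjusted p = 0.075).

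Msmo1 is the oxidase that acts on the same C4 methyl groups as Nsdhl, and it rose in the nephron and interstitial lines, where Nsdhl fell. In interstitial arrays it was 8.96, 9.43 and 9.51 after IRI, against 9.04, 7.91 and 7.54 in sham (1.14 ± 0.25, adjusted p = 2.7e-04). These groups overlapped, since sham replicate 1 lay above IRI replicate 1, and a fit of these 6 arrays alone gave adjusted p = 0.052. Nephron arrays held 10.39, 10.28 and 10.32 after IRI, against 10.06, 9.69 and 9.04 in sham (0.73 ± 0.25, adjusted p = 0.023). Here all IRI arrays were higher, but the change was 0.45 without sham replicate 3 (adjusted p = 0.25), and it did not pass without IRI replicate 1 (0.70, adjusted p = 0.071). Msmo1 was -0.52 in the endothelial and 0.17 in the myeloid line, and its responses differed (adjusted p = 9.7e-04). Hsd17b7, the 3-keto reductase of the same demethylation, rose in the myeloid line (0.58 ± 0.20, adjusted p = 0.022), but not without IRI replicate 1 or sham replicate 1 (adjusted p up to 0.10). Sc5d, the C5 desaturase, was within 0.26 of no change in each line.

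**Figure D2:**
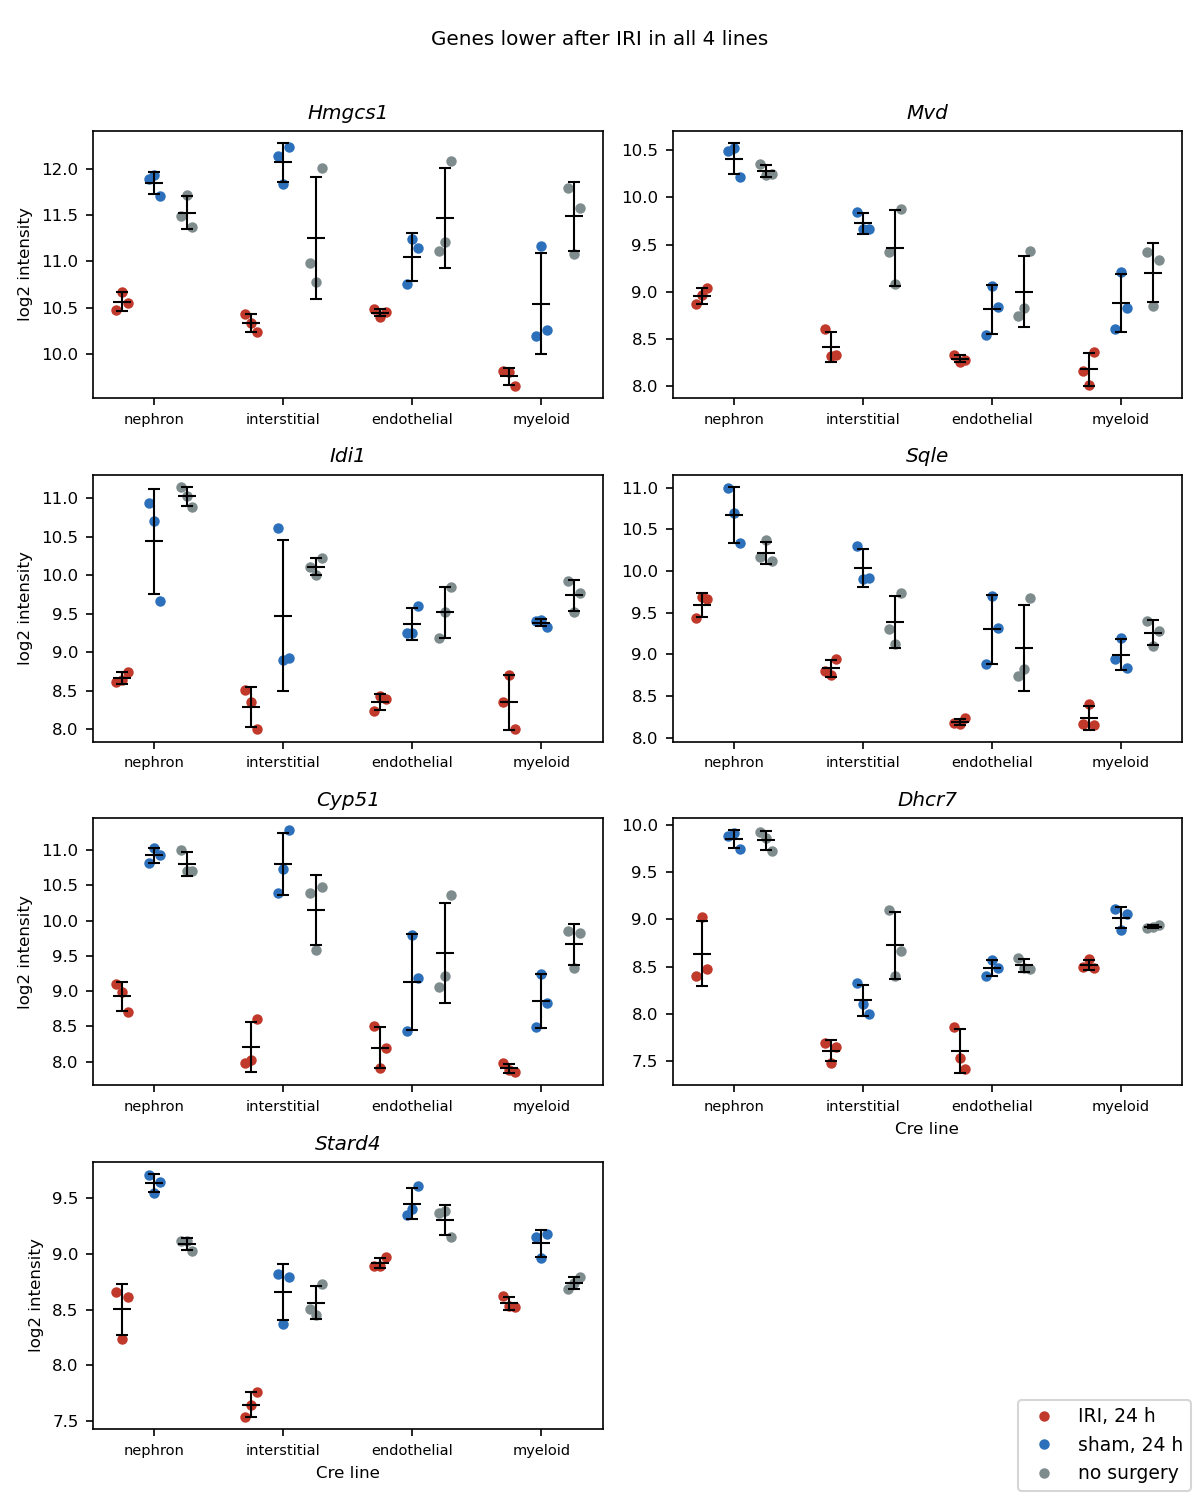
Log2 intensity of the 7 genes that fell in all 4 lines, for each array (points) 24 h after IRI, 24 h after sham surgery and without surgery, with the mean and SD of the 3 arrays (bars). IRI arrays lie below the sham arrays of their line except for Cyp51 in the endothelial line, and the sham arrays of Idi1 in the nephron and interstitial lines are widely spread (9.67 to 10.94 and 8.90 to 10.61).

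Of the 5 genes that control SREBP, 0 passed in the nephron line by limma (Insig1 passed at an unadjusted p under 0.05), 1 fell in the interstitial line, 2 fell in the endothelial line, and in the myeloid line 1 fell and 1 rose. Srebf2, which encodes SREBP2, was 10.11, 10.14 and 10.10 in nephron IRI arrays, against 10.22, 10.13 and 10.01 in nephron sham arrays (0.00 ± 0.10). In myeloid arrays it was 10.03, 9.97 and 10.05 after IRI, against 10.90, 10.60 and 10.73 in sham (-0.73 ± 0.10, adjusted p = 9.2e-08). The nephron groups overlapped and the myeloid groups did not. The myeloid response differed from the mean of the other 3 by -0.76 ± 0.11 (adjusted p = 2.1e-06). In the same myeloid arrays neutrophil markers rose (above), and the mice differed in age. Of the myeloid markers Adgre1 fell (-1.04 ± 0.24), Itgam rose (1.43 ± 0.32) and the others did not pass. The part of these markers in the myeloid changes of Srebf2, Insig1 and Hsd17b7 was not tested. Srebf2 lay at 9.93 to 10.28 in interstitial and endothelial IRI arrays, against 9.80 to 10.22 in their sham arrays.

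Srebf1, which encodes the SREBP1 forms that drive fatty acid genes, was 8.96, 8.73 and 8.71 in nephron IRI arrays, against 8.84, 8.68 and 8.62 in nephron sham arrays. In the other 3 lines it ran from 8.50 to 9.05 after IRI, against 8.49 to 8.94 in sham. Its changes were 0.09, 0.13, -0.10 and 0.16 in the nephron, interstitial, endothelial and myeloid lines, each with an SE of 0.14, and none passed. Scap was 9.24, 9.14 and 9.22 in endothelial IRI arrays, against 9.86, 9.96 and 9.72 in endothelial sham arrays, and passed in that line alone (-0.65 ± 0.10, adjusted p = 1.7e-06), and that response differed from the mean of the others by -0.59 ± 0.12 (adjusted p = 2.5e-04). Myeloid and lymphocyte markers were lower and neutrophil markers higher in the same endothelial arrays (above). The part of these markers in the falls of Scap, Insig2, Fdps, Ggps1 and Fdft1 there was not tested.

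Insig2, one of the pair of INSIG genes, was 8.58, 8.52 and 8.84 in endothelial IRI arrays, against 10.37, 10.26 and 10.31 in endothelial sham arrays (-1.66 ± 0.19, adjusted p = 1.2e-09). It was 9.45, 9.20 and 9.26 in interstitial IRI arrays, against 9.86, 9.72 and 9.73 in interstitial sham arrays (-0.47 ± 0.19, adjusted p = 0.045). Both pairs of groups were fully apart, but the interstitial call did not pass on leaving out any 1 of the 6 arrays except IRI replicate 1 (adjusted p up to 0.13). Nephron arrays held 9.91, 10.23 and 10.23 after IRI and 10.57, 10.40 and 10.43 in sham, and myeloid arrays 9.32, 9.93 and 9.44 after IRI and 9.92, 9.94 and 9.85 in sham. Neither of these changes passed (-0.35 and -0.34, SE 0.19). The endothelial response of Insig2 differed from the mean of the others by -1.28 ± 0.22 (adjusted p = 1.7e-05).

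Insig1, itself a known SREBP target, did not fall by the test in any line. It was 10.07, 9.67 and 9.59 in nephron IRI arrays, against 10.77, 10.51 and 9.98 in nephron sham arrays, with overlap (-0.65 ± 0.26, adjusted p = 0.054, and 0.012 without the total RNA arrays in the fit). Myeloid arrays held 10.64, 10.22 and 10.38 after IRI, against 9.67, 9.55 and 9.75 in sham (0.76 ± 0.26, adjusted p = 0.022). All myeloid IRI arrays were higher, but the call did not pass without IRI replicate 1 or sham replicates 1 or 2 (0.64 to 0.76, adjusted p up to 0.11). Cell markers and age also differed between these myeloid groups (above). Interstitial arrays held 9.28, 9.35 and 9.32 after IRI and 9.85, 9.30 and 9.03 in sham, and endothelial arrays 10.17, 9.99 and 10.01 after IRI and 10.00, 10.01 and 10.08 in sham. Its responses differed between lines (adjusted p = 0.013), that of the nephron line by -0.88 ± 0.30 and that of the myeloid line by 0.99 ± 0.30 from the mean of the other 3.

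Among the transport genes, Stard4 fell in every line while the efflux transporters rose in some. Stard4, a carrier of sterol between membranes, was 8.66, 8.24 and 8.61 in nephron IRI arrays, against 9.71, 9.55 and 9.65 in nephron sham arrays (-1.13 ± 0.13, adjusted p = 5.0e-09). Interstitial arrays held 7.54, 7.64 and 7.76 after IRI, against 8.82, 8.37 and 8.79 in sham (-1.01 ± 0.13, adjusted p = 3.4e-08). In every line the IRI arrays lay below the sham arrays, and the endothelial and myeloid changes were -0.53 ± 0.13 and -0.54 ± 0.13 (adjusted p = 9.3e-04 and 0.0012). These calls passed whichever array was left out.

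Abca1, which exports cholesterol to apolipoprotein A-I, was 10.97, 11.00 and 11.28 in myeloid IRI arrays, against 9.68, 9.75 and 9.55 in myeloid sham arrays (1.43 ± 0.27, adjusted p = 5.4e-05). Nephron arrays held 9.23, 8.89 and 8.75 after IRI, against 7.95, 8.16 and 8.49 in sham (0.76 ± 0.27, adjusted p = 0.031). The groups did not overlap in either line, but the nephron call did not pass without replicates 1 or 2 of either group (0.62 to 0.79, adjusted p up to 0.15). Nephron arrays without surgery held 8.72, 9.12 and 9.05, overlapping the IRI arrays, and the sham arrays were below them by a difference that did not pass (-0.77 ± 0.27, adjusted p = 0.17). Interstitial arrays held 9.22, 9.19 and 9.56 after IRI and 9.22, 9.55 and 9.38 in sham, and endothelial arrays 9.76, 9.55 and 9.64 after IRI and 9.41, 9.85 and 9.51 in sham, with changes of -0.06 and 0.06. Abcg1, which exports cholesterol to high density lipoprotein, was 11.18, 11.04 and 11.49 in myeloid IRI arrays, against 10.38, 10.31 and 10.30 in myeloid sham arrays (0.91 ± 0.13, adjusted p = 7.3e-07). It was -0.19, -0.06 and 0.26 in the nephron, interstitial and endothelial lines, where it lay at 7.76 to 7.89, 8.86 to 8.94 and 10.76 to 10.94 after IRI and at 7.95 to 8.12, 8.93 to 8.97 and 10.41 to 10.70 in sham. Both transporters responded more in the myeloid line than the mean of the other 3, Abca1 by 1.18 ± 0.31 (adjusted p = 0.0057) and Abcg1 by 0.91 ± 0.15 (adjusted p = 2.8e-05). Neutrophil markers rose in the same arrays (above), and the mice differed in age. The part of the neutrophil markers in the change of the transporters was not tested.

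**Figure D3:**
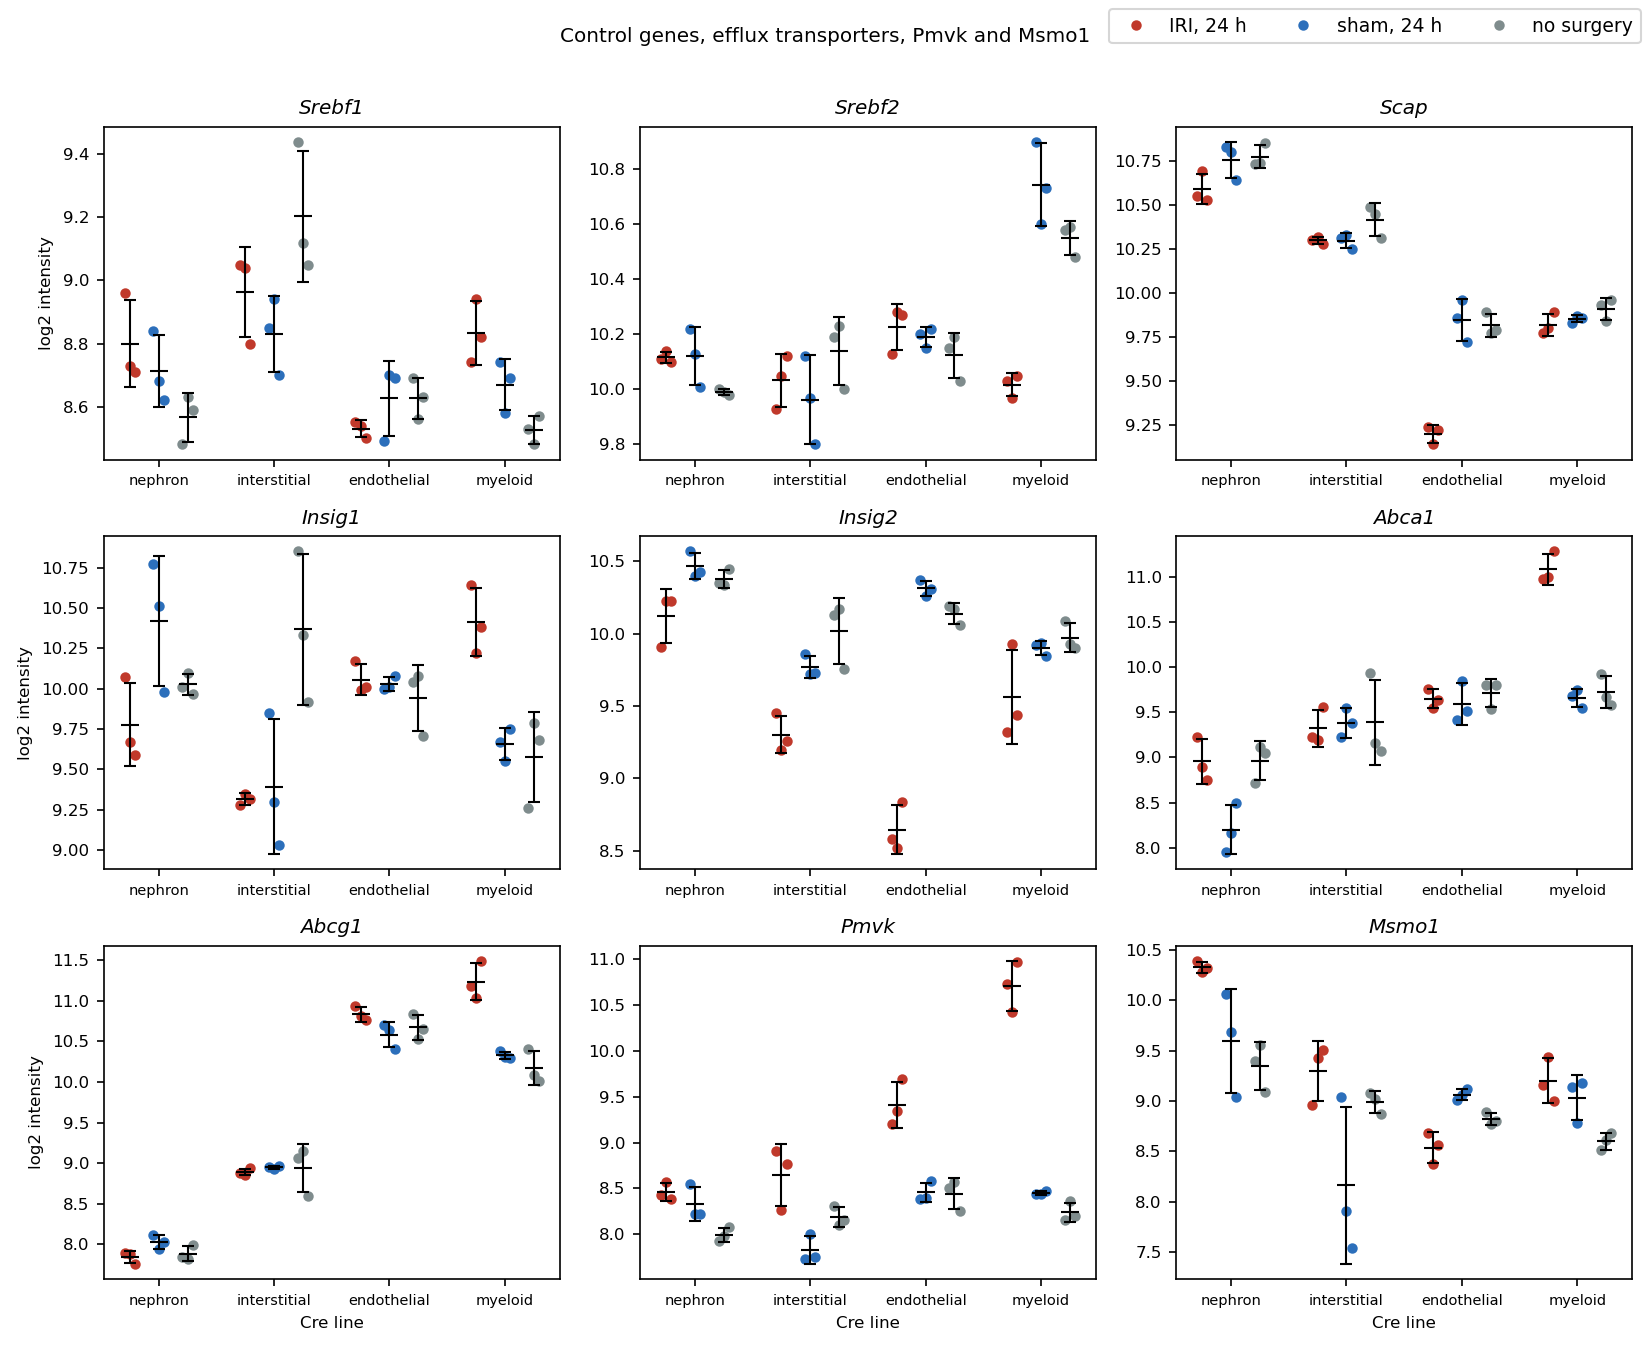
Log2 intensity of 5 control genes, the 2 efflux transporters, Pmvk and Msmo1 for each array (points) 24 h after IRI, 24 h after sham surgery and without surgery, with the mean and SD of the 3 arrays (bars). Pmvk, Abca1 and Abcg1 stand apart in the 3 myeloid IRI arrays, Insig2 in the endothelial IRI arrays (8.52 to 8.84), and Srebf2 is lower in myeloid IRI (9.97 to 10.05) than in myeloid sham arrays (10.60 to 10.90).

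Whether the 4 responses differ was tested for each gene. The F test found a difference for 16 of the 26 genes (46.4% of all genes tested). The nephron response was lower than the mean of the other 3 for 8 genes (11.2% of all genes tested) and higher for 0 (11.8%; 2 at limma's unadjusted p under 0.05). The interstitial response was lower for 2 (7.87%) and higher for 1 (7.67%), the endothelial response lower for 6 (14.9%) and higher for 1 (13.6%), and the myeloid response lower for 1 (8.93%) and higher for 6 (9.29%). In either direction these are 8 (23%), 3 (15.5%), 7 (28.5%) and 7 (18.2%) of the 26 genes. Idi1, Sqle, Dhcr7, Nsdhl and Ebp were among the 10 that did not pass the F test. The nephron count was 2 without nephron sham replicate 1, 3 without nephron IRI replicate 3, 4 without nephron IRI replicate 1 or nephron sham replicate 2, and 5 without interstitial sham replicates 2 or 3, interstitial IRI replicate 1 or endothelial IRI replicate 2. The interstitial count of 3 was 0 without interstitial sham replicate 3 and 5 without myeloid sham replicate 2. The median response difference of the 26 genes was -0.14 in the nephron and 0.38 in the myeloid line, where that of all genes was -0.06 and -0.03.

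Only the nephron line had an early time. The sample numbers of the 4 h arrays do not follow on from those of the other arrays, so a separate batch cannot be told apart from time. At 4 h after IRI, 5 of the 26 genes were lower than in the 24 h sham arrays (10.8% of all genes tested) and 2 were higher (7.60%). Those lower were Mvk (-0.61 ± 0.13), Tm7sf2 (-0.76 ± 0.16), Ebp (-0.50 ± 0.15), Dhcr7 (-0.58 ± 0.19) and Scap (-0.51 ± 0.10). Those higher were Abca1 (0.94 ± 0.27, adjusted p = 0.011) and Srebf1 (0.51 ± 0.14, adjusted p = 0.0054). Ebp did not pass without sham replicate 1 or 4 h replicate 2, and Dhcr7 not without sham replicates 1 or 2 or 4 h replicates 2 or 3. Abca1 was 7.95, 8.16 and 8.49 in sham, 9.19, 9.10 and 9.12 at 4 h and 9.23, 8.89 and 8.75 at 24 h, and its 4 h call did not pass without sham replicate 1 (0.81, adjusted p = 0.066). Without surgery it was 8.72, 9.12 and 9.05, above every sham array, though that difference did not pass (above). Srebf1 was 8.84, 8.68 and 8.62 in sham, 9.57, 8.70 and 9.41 at 4 h and 8.96, 8.73 and 8.71 at 24 h. Its 4 h arrays overlapped with sham through replicate 2, and the call did not pass without 4 h replicates 1 or 3 (0.34 to 0.42, adjusted p up to 0.11), while the change was 0.78 without replicate 2. The 6 nephron markers summed to 15.26 to 15.28 at 4 h, against 14.98 to 15.14 in sham, and their part in these changes was not tested.

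Cyp51, Idi1, Mvd and Hmgcs1, the enzymes with the largest falls at 24 h, had not passed at 4 h. Dhcr7, with the next largest fall, had passed (above). Idi1 was 10.94, 10.70 and 9.67 in sham, 11.04, 10.53 and 10.99 at 4 h and 8.61, 8.64 and 8.75 at 24 h. Cyp51 was 10.82, 11.03 and 10.93 in sham, 10.57, 10.09 and 11.07 at 4 h and 9.10, 8.99 and 8.70 at 24 h. Hmgcs1 was 11.89, 11.94 and 11.71 in sham, 11.89, 11.84 and 11.78 at 4 h and 10.47, 10.67 and 10.55 at 24 h. For Cyp51, 2 of the 3 arrays at 4 h lay below every sham array, while for Idi1 and Hmgcs1 the groups overlapped. Mvd was 10.49, 10.52 and 10.22 in sham, 10.06, 9.88 and 10.21 at 4 h and 8.87, 8.96 and 9.04 at 24 h. Its 4 h arrays all lay below every sham array, though the change did not pass (-0.36 ± 0.20, adjusted p = 0.23). Sqle was likewise lower in all 4 h arrays without passing (-0.54 ± 0.25, adjusted p = 0.14). All 24 h arrays of Idi1, Cyp51, Hmgcs1 and Mvd lay below both the sham and the 4 h arrays. The 24 h arrays set directly against the 4 h arrays gave 9 lower genes (12.7% of all genes tested) and 2 higher (14.8%), together 11 (27.5%). The lower ones were Idi1 (-2.19 ± 0.31, adjusted p = 4.4e-07), Cyp51 (-1.65 ± 0.33), Hmgcs1 (-1.28 ± 0.25), Mvd (-1.09 ± 0.20), Stard4 (-1.09 ± 0.13), Insig1 (-0.92 ± 0.26), Nsdhl (-0.67 ± 0.21), Dhcr7 (-0.64 ± 0.19) and Srebf1 (-0.43 ± 0.14). Scap (0.34 ± 0.10) and Sc5d (0.41 ± 0.13) were higher at 24 h than at 4 h. Of these 11 calls, those of Dhcr7, Nsdhl, Sc5d, Scap and Srebf1 did not pass without at least 1 of the arrays: Dhcr7 without 24 h replicates 1 or 3, Nsdhl without 24 h replicate 1, Sc5d without 24 h replicate 3 or 4 h replicate 1, Scap without replicate 2 of either time, and Srebf1 without 24 h replicates 2 or 3 or 4 h replicates 1 or 3. The Srebf1 change ran from -0.69 without 4 h replicate 2 to -0.25 without 4 h replicate 1.

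**Figure D4:**
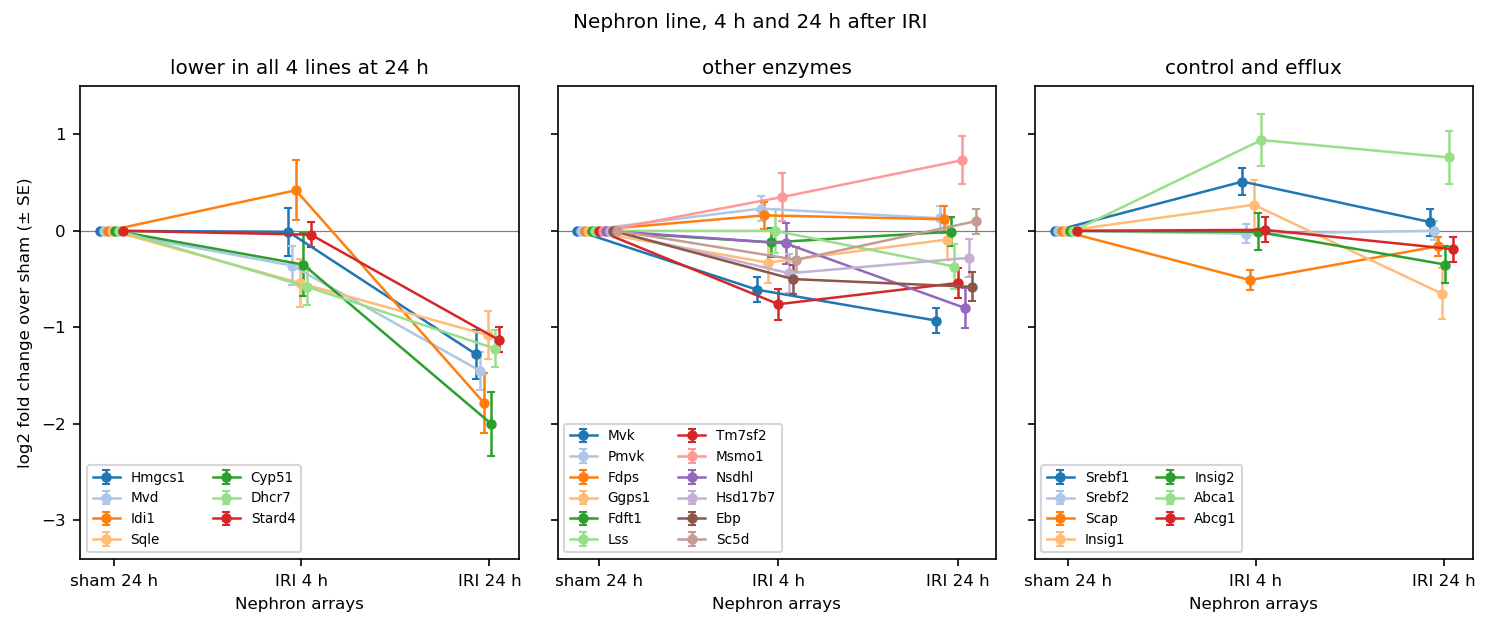
Log2 fold change over the 24 h sham arrays (set to 0) in nephron arrays 4 h and 24 h after IRI, for the 7 genes that fell in all 4 lines at 24 h (left), the other enzymes (middle) and the control and efflux genes (right), with SE bars. Idi1, Cyp51, Hmgcs1 and Stard4 fell between 4 h and 24 h, while Abca1 was higher than sham at both times (0.94 and 0.76). The sham arrays of Abca1 lay below the nephron arrays without surgery, which are not shown here.

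In mice without surgery, the nephron line held the highest mean of the 4 lines for 15 of the 26 genes. The share of all genes with their highest mean there is not given, so this count only describes the 26. Some gaps were small: the 4 means of Hmgcs1, 1 of the 15, lay within 0.27. Against the mean of the other 3 lines, 13 genes were higher in the nephron line (29% of all genes tested) and 5 lower (22%). Tm7sf2 was higher by 1.46 ± 0.13 (adjusted p = 4.7e-13), Idi1 by 1.24 ± 0.25, Dhcr7 by 1.12 ± 0.15, Mvd by 1.06 ± 0.16, Hsd17b7 by 1.03 ± 0.16, Cyp51 by 1.02 ± 0.27, Sqle by 0.98 ± 0.21 and Scap by 0.73 ± 0.09. Efflux genes ran the other way, with Abcg1 (-2.05 ± 0.11, adjusted p = 6.5e-20) and Abca1 (-0.64 ± 0.22) lower in the nephron line. Abcg1 was 7.84, 7.82 and 7.99 in nephron arrays, 9.07, 9.15 and 8.60 in interstitial, 10.84, 10.53 and 10.65 in endothelial and 10.41, 10.09 and 10.01 in myeloid arrays. The nephron and interstitial arrays of Abcg1 lay apart from each other and below the rest, and the endothelial arrays lay above the myeloid ones without overlap. In the endothelial line 13 genes were lower (20.2% of all genes tested) and 4 higher (20.7%), namely Abcg1 (1.68 ± 0.11), Ggps1 (0.58 ± 0.17), Stard4 (0.50 ± 0.11) and Pmvk (0.30 ± 0.11). In the myeloid line 8 were lower (20.6%) and 2 higher (16.7%), Abcg1 (1.01 ± 0.11) and Srebf2 (0.46 ± 0.08). In the interstitial line 5 were higher (12.9%) and 2 lower (19.5%), and the largest differences upward were those of Fdft1 (0.67 ± 0.12), Srebf1 (0.63 ± 0.11) and Sc5d (0.58 ± 0.10). Adipocyte markers summed to 13.48 to 14.17 in the interstitial arrays without surgery and to 8.95 to 9.55 in the other lines, and their part in these levels was not tested.

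Sham surgery was set against no surgery, with nephron mice 8 weeks old after sham surgery and 6 weeks old without. Against no surgery, 1 gene was higher in nephron sham arrays (0.746% of all genes tested), Stard4 (0.55 ± 0.13, adjusted p = 0.017), and 0 were lower (0.99%; 1 at limma's unadjusted p under 0.05). In endothelial sham arrays 0 were higher (0.332%) and 0 lower (0.518%), also 0 at limma's unadjusted p under 0.05. In the myeloid line Hmgcs1 was lower (-0.95 ± 0.25, adjusted p = 0.032; 1.19% of all genes tested were lower) and 0 genes were higher (0.394%; 3 at limma's unadjusted p under 0.05). It was 10.19, 11.17 and 10.26 in myeloid sham arrays, against 11.80, 11.08 and 11.58 without surgery, and the groups overlapped. Some markers moved in the same myeloid arrays: Lrp2 (-1.23), Cubn (-1.37) and Slc34a1 (-0.66) of the nephron were lower and S100a8 (2.55) and S100a9 (2.49) of neutrophils higher. The other nephron markers, Umod (-0.20), Slc12a1 (-0.50) and Slc12a3 (-0.56), did not pass. Nor did the other neutrophil markers, Ly6g (0.17), Mpo (0.01) and Csf3r (0.25). The nephron markers summed to 13.60 to 14.55 in myeloid sham arrays and 14.53 to 14.93 without surgery, and the neutrophil markers to 11.21 to 11.63 and 9.88 to 10.12. Their part in the change of Hmgcs1 was not tested. The interstitial line had 4 genes lower in sham (4.70%) and 2 higher (5.37%). Insig1 (-0.97 ± 0.26, adjusted p = 0.01), Msmo1 (-0.82 ± 0.25), Sc5d (-0.62 ± 0.13) and Dhcr7 (-0.58 ± 0.19) were lower, and Hmgcs1 (0.82 ± 0.25) and Lss (0.70 ± 0.23) higher. Adipocyte markers summed to 11.03 to 12.99 in interstitial sham arrays and 13.48 to 14.17 without surgery, and their part in these changes was not tested. The interstitial count of 6 was 1 without sham replicate 3 or no-surgery replicate 1, and 3 without sham replicate 2. In either direction 1.74%, 10.1%, 0.85% and 1.58% of all genes tested passed in the nephron, interstitial, endothelial and myeloid lines. The single nephron call did not pass without sham replicates 1 or 3 or any no-surgery replicate, nor the myeloid one without replicates 1 or 3 of either group.

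Some markers listed for adrenal cortex, a tissue rich in cholesterol synthesis, were higher in interstitial arrays after IRI. Of 5 markers, 3 rose: Mc2r (2.10 ± 0.27), Star (1.41 ± 0.10) and Cyp11b1 (0.28 ± 0.09). Cyp11a1 (0.05) and Cyp21a1 (0.06) did not pass, with means of 5.24 and 5.60 after IRI and 5.19 and 5.55 in sham. The sum of the 5 ran from 8.81 to 10.2 in interstitial IRI arrays, against 7.94 to 8.19 in interstitial sham arrays. In wild-type background it ran from 8.07 to 8.4 after IRI, against 7.92 to 7.94 in sham. Star alone of the 5 passed in the myeloid line (0.42 ± 0.10). The adipocyte sum ran from 11.16 to 12.17 in interstitial IRI arrays, against 11.03 to 12.99 in interstitial sham arrays. The part of these markers in the interstitial changes was not tested.

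In wild-type background, which carries no tag, 13 genes were lower after IRI (17.7% of all genes tested) and 0 higher (20.2%; 0 also at limma's unadjusted p under 0.05). All of the 7 genes that fell in every line were among the 13 (53.8% of them). Of the 690 genes tested that fell in every line, 71.7% also fell in wild-type background, where they made up 14.4% of the genes that fell. The largest falls were those of Cyp51 (-2.33 ± 0.35), Mvd (-1.89 ± 0.21), Idi1 (-1.69 ± 0.33), Sqle (-1.67 ± 0.27) and Lss (-1.52 ± 0.24). Cyp51 was 8.54, 9.97, 9.00 and 9.12 in wild-type IRI arrays, against 11.49 and 11.48 in wild-type sham arrays. Hmgcs1 was 11.42, 11.68, 11.38 and 11.54 in wild-type IRI arrays, against 12.70 and 12.66 in wild-type sham arrays. No IRI array reached a sham array for either gene. Abca1 was 10.31, 8.52, 8.81 and 9.24 in wild-type IRI arrays, against 10.23 and 10.36 in wild-type sham arrays, with overlap through IRI replicate 1 (-1.08 ± 0.29, adjusted p = 0.0022). In these arrays nephron markers summed to 15.06 to 15.35 after IRI, against 15.63 to 15.67 in sham, and adipocyte markers to 9.58 to 13.41, against 9.32 to 10.5, and their part in the changes was not tested. In L10a background 7 genes were lower (19.4%) and 4 higher (19%), together 11 (38.4%), and the calls there included Mvk (-0.84 ± 0.14) and Srebf2 (0.59 ± 0.10), while Cyp51 and Hmgcs1 did not pass. Cyp51 was 8.42, 8.10, 7.94 and 8.03 in L10a IRI arrays, against 9.33 and 7.86 in L10a sham arrays, and its change of -0.48 ± 0.35 was 0.26 without sham replicate 1 and -1.21 without sham replicate 2 (adjusted p = 0.026). The change of Hmgcs1 was -0.46 ± 0.26, and -0.15 and -0.77 without those arrays.

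Levels in the lines were set against wild-type background. In sham arrays 10 genes were higher in the nephron line than in wild-type background (28.8% of all genes tested) and 7 lower (19.5%). The higher ones included Tm7sf2 (1.74 ± 0.18), Ebp (1.51 ± 0.17), Insig2 (1.42 ± 0.21) and Dhcr7 (1.23 ± 0.21), and the lower ones Lss (-1.76 ± 0.26), Hmgcs1 (-0.84 ± 0.28), Mvd (-0.58 ± 0.22), Abca1 (-2.10 ± 0.30) and Abcg1 (-1.65 ± 0.15). In interstitial, endothelial and myeloid sham arrays 13 (19.8%), 14 (26.4%) and 13 (24.8%) genes were lower than in wild-type background, and 2 (22.2%), 5 (29.5%) and 6 (28.3%) higher. After IRI 11 genes were higher in the nephron line than in wild-type background (25.3%) and 4 lower (18.7%). In interstitial, endothelial and myeloid IRI arrays 10 (16.3%), 15 (23%) and 11 (30.4%) were lower and 3 (17.8%), 4 (26.5%) and 9 (27.8%) higher. Pmvk, Abca1 and Abcg1 were higher in myeloid IRI arrays than in wild-type IRI arrays by 2.97 ± 0.12, 1.87 ± 0.25 and 2.17 ± 0.13. Cyp51, Sqle, Idi1, Mvd and Hmgcs1 were lower there in the endothelial and myeloid lines. How much of the signal of these 5 enzymes in those lines came from untagged RNA was not tested.

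The nephron response differed from that of wild-type background for 4 genes: it was higher for Abca1 (1.84 ± 0.40, adjusted p = 5.6e-04), Lss (1.15 ± 0.34) and Fdps (0.77 ± 0.20) (9.90% of all genes tested) and lower for Tm7sf2 (-0.68 ± 0.23; 12.6%), where 22.5% of all genes passed in either direction. For the 7 genes that fell in all 4 lines no such difference passed. In total RNA 18 of the 26 genes fell (15.7% of all genes tested) and 0 rose (15.7%; 0 also at limma's unadjusted p under 0.05), with a median of -0.55 against 0.05 for all genes. Cyp51 fell by 2.24 ± 0.33, Idi1 by 2.03 ± 0.31, Hmgcs1 by 1.49 ± 0.25, Nsdhl by 1.12 ± 0.21, Dhcr7 by 1.08 ± 0.19 and Insig1 by 1.07 ± 0.26. Nsdhl was 9.40, 8.83 and 7.70 in total RNA IRI arrays, against 9.70, 9.98 and 9.59 in total RNA sham arrays, and fell by 0.64 without IRI replicate 3, the lowest array. Without that replicate Sqle, Lss, Ggps1, Insig2, Fdft1 and Scap also moved by over 1.5 times and did not pass, with -0.40, -0.24, -0.07, -0.17, -0.21 and -0.04. Nephron markers summed to 14.01 to 14.08 in total RNA IRI arrays, against 14.72 to 14.80 in total RNA sham arrays, and their part in these falls was not tested. The count was 11 without total RNA IRI replicate 3 or sham replicate 2, and 3 in a fit of the total RNA arrays alone. Against total RNA, the nephron response was higher for Abca1 (1.34 ± 0.38, adjusted p = 0.04; 1.41% of all genes tested were higher) and lower for 0 genes (1.99%, and 3.40% in either direction; 1 lower at limma's unadjusted p under 0.05). The Abca1 difference did not pass without nephron replicates 1 or 2 of either group or total RNA IRI or sham replicate 3. Both Abca1 differences, from wild-type background and from total RNA, rest on nephron sham arrays that lay below those without surgery (above).

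Another 35 genes of sterol and fatty acid metabolism were listed beside the 27, and 27 of them were measured. In the nephron, interstitial, endothelial and myeloid lines 9, 10, 10 and 6 of them fell (14.7%, 19.9%, 21.7% and 14.6% of all genes tested) and 5, 5, 3 and 2 rose (13.8%, 19.2%, 21.1% and 13.2%). Acss2, which makes acetyl-CoA from acetate and is an SREBP target, fell in all 4 lines, by 2.01 ± 0.32, 2.56 ± 0.32, 1.13 ± 0.32 and 1.42 ± 0.32. Acly, the other measured gene listed in the same role, rose in the nephron line (0.61 ± 0.12) and did not pass in the myeloid line (0.10 ± 0.12). Cyp7b1, which hydroxylates oxysterols, fell by 3.10, 3.31, 3.42 and 2.46 (SE 0.51 each), and Cyp27a1, the sterol 27-hydroxylase, by 0.64, 1.87, 1.44 and 1.32 (SE 0.18 each). Ch25h, the cholesterol 25-hydroxylase, rose in the nephron (0.67 ± 0.25), interstitial (3.03 ± 0.25) and endothelial (1.00 ± 0.25) lines and fell in the myeloid line (-1.55 ± 0.25). Npc1, which exports cholesterol from lysosomes, rose in every line, by 1.05, 0.52, 0.45 and 1.08 (SE 0.17 each). Scarb1, the receptor for high density lipoprotein, rose in the nephron (1.06 ± 0.19) and interstitial (0.89 ± 0.19) lines. Nr1h3, which encodes LXR alpha, fell in the nephron, interstitial and endothelial lines (-1.25, -1.92 and -0.87, SE 0.18 each) and did not pass in the myeloid line (-0.35). Mbtps1, the protease that cuts SREBP first, fell in the same 3 lines (-0.70, -0.68 and -1.01, SE 0.18 each). In wild-type background 11 of the 27 fell (17.7% of all genes tested) and 5 rose (20.2%), among them Acss2 (-1.74 ± 0.34), Cyp7b1 (-3.04 ± 0.54) and Ch25h (3.47 ± 0.26). At 4 h in the nephron line 3 fell (10.8% of all genes tested), among them Nr1h3 (-1.08 ± 0.18) and Tmem97 (-0.69 ± 0.19), and 1 rose (7.60%), Ch25h (0.82 ± 0.25).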

How the data were processed

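Kidney RNA was hybridised to 57 Affymetrix Mouse Gene 1.0 ST arrays of 19 groups. Per the submitters' processing notes, the authors used RMA as run by Affymetrix Expression Console 1.3.1. The deposited values are linear intensities (7.1548 to 19571), where log2 values had been assumed in the plan, so log2 was taken. Intensity has no read depth, and the number of arrays limits the precision. The annotation gave 1 gene symbol for 21789 of the 35556 probe sets, several for 1621 and none for 12146. The probe set with the highest mean stood for each gene. limma 3.58.1 (R 4.3.3) fitted 1 coefficient per group over all 57 arrays with eBayes defaults and Benjamini-Hochberg adjustment over 19302 genes. Response differences were contrasts and a moderated F test in the same fit. The fit was tested on simulated data. Promoters came from RefSeq (GRCm38.p6). All members were described, and of the other pathway genes up to 3 called per direction and comparison. Members, roles and lists were chosen with earlier results of these data known. Replicate numbers do not pair samples (correlations of deviations -0.24 to 0.17). Alternatives were other normalizations, filters, sets of arrays, eBayes settings, probe set rules, an added offset of 16, a replicate block and leaving out 1 array.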

Additional observations from a re-analysis of the deposited data

Results flagged for a closer look

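In background groups of 4 arrays, 3 values lay far from the other 3 arrays of their group, among 52 combinations of gene and group tested. Chance flags about 1 in 20 groups. Mvd at 8.40 and Idi1 at 9.70 were both in replicate 1 of the L10a background after IRI, and Abcg1 at 9.52 was in replicate 1 of the wild-type background after IRI.

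The 4 responses to IRI differed by the moderated F test for 16 genes. The adjusted p was 5.2e-11 for Pmvk, 8.4e-06 for Srebf2, 1.5e-05 for Mvk, 3.2e-05 for Abcg1, 9.5e-05 for Insig2, 9.6e-04 for Scap and 9.7e-04 for Msmo1. It was 0.0041 for Abca1, 0.0054 for Fdps, 0.0058 for Cyp51, 0.0074 for Stard4, 0.012 for Mvd, 0.013 for Insig1, 0.017 for Lss, 0.025 for Hmgcs1 and 0.043 for Hsd17b7.

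Each line's response was also set against the mean response of the other 3. In the nephron line it was lower for Mvk (-0.41), Pmvk (-1.22), Mvd (-0.60), Hsd17b7 (-0.67), Dhcr7 (-0.58), Insig1 (-0.88), Stard4 (-0.44) and Abcg1 (-0.55). In the interstitial line it was lower for Hmgcs1 (-0.85) and Cyp51 (-1.30) and higher for Msmo1 (1.01). In the endothelial line it was lower for Mvk (-0.66), Fdps (-0.51), Fdft1 (-0.44), Msmo1 (-1.20), Scap (-0.59) and Insig2 (-1.28) and higher for Mvd (0.63). In the myeloid line it was lower for Srebf2 (-0.76) and higher for Mvk (0.76), Pmvk (1.62), Lss (0.99), Insig1 (0.99), Abca1 (1.18) and Abcg1 (0.91). Against wild-type background, the nephron response was higher for Fdps (0.77), Lss (1.15) and Abca1 (1.84) and lower for Tm7sf2 (-0.68). Against total RNA it was higher for Abca1 (1.34).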

How the results depend on the processing

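The main limits were 3 arrays in most groups, 2 sham arrays in each background, ages that differ between groups, and purifications that carry untagged RNA. Of the 115 changes of single genes after IRI that passed the test, over the lines, both times, total RNA and both backgrounds, 0 turned their sign in any setting run. Of the 119 that did not pass, 37 turned, among them Abca1 in the endothelial line (0.06, and -0.03 without sham replicate 1). With quantile normalization the genes higher after IRI numbered 2 in the endothelial and 4 in the interstitial line, the interstitial response differed for 6 genes, the nephron response differed from total RNA for 0, and nephron sham from no surgery for 2. With median centring 5 genes were lower in the myeloid line and 3 at 4 h, the nephron response differed for 3, and sham from no surgery for 3 interstitial, 0 myeloid and 0 nephron genes. Fits of the compared groups alone gave 3 lower genes in total RNA, 10 lower and 1 higher at 4 h, 2 higher in the endothelial and 1 in the interstitial line, and 18 called in L10a background. In them the responses differed for 16 endothelial, 9 interstitial and 13 myeloid genes and for 0 against total RNA, and sham from no surgery for 0 interstitial, 0 myeloid and 5 nephron genes. Without the total RNA arrays 2 genes were higher in the endothelial line and 8 lower at 4 h, the responses differed for 12 endothelial, 7 interstitial and 11 myeloid genes, and sham from no surgery for 10 interstitial and 3 nephron genes. Without the background arrays sham differed from no surgery for 0 myeloid genes. The cause was not tested.

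Leaving out 1 array at a time gave 11 to 12 lower and 0 to 2 higher genes in the nephron, 7 to 11 lower in the interstitial, 12 to 16 lower in the endothelial, 3 to 7 lower and 3 to 5 higher in the myeloid line, 11 to 19 lower in total RNA, 3 to 5 lower and 1 to 2 higher at 4 h, and 7 to 11 called in L10a background. Myeloid lower calls numbered 3 without IRI replicate 3. Responses differed for 2 to 9 nephron, 0 to 5 interstitial, 5 to 8 endothelial and 6 to 8 myeloid genes, and for 0 to 2 against total RNA. Sham differed from no surgery for 1 to 7 interstitial, 0 to 1 myeloid and 0 to 1 nephron genes. With a replicate block the lower calls numbered 11, 11, 14 and 8 in the nephron, interstitial, endothelial and myeloid lines and 17 in total RNA, and no count moved past 1.5 times.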
